A study of Triticum aestivum and Aegilops tauschii and Triticum carthlicum with 33 samples.

Results

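Leaf RNA of the bread wheat line TAA10 was set against leaf RNA of the durum wheat line TTR13 on Affymetrix wheat arrays. The comparison holds 6 of the 33 arrays of the series, assigned by their line labels: 3 of TAA10 and 3 of TTR13. TAA10 is a Triticum aestivum line, a natural hexaploid with the genomes BBAADD, and TTR13 is Triticum turgidum ssp. durum, a natural tetraploid with the genomes BBAA. Arrays of 7 other groups are used here for reference, with 3 arrays each. XX329 is a resynthesized BBAADD hexaploid from Extracted-tetra and the Aegilops tauschii line TQ18, and Allo-960S7 is a synthetic BBAADD hexaploid, in its selfed generation 7, from Blackbird and the Aegilops tauschii line 30A. Extracted-tetra is a BBAA tetraploid taken out of a bread wheat background, TD265 is Triticum turgidum ssp. dicoccoides (wild emmer), and Blackbird is Triticum turgidum ssp. carthlicum. TQ18 and 30A are diploids with the DD genome. Levels of Allo-960 mix, an RNA mix of the parents of Allo-960S7, are cited for GLU1A alone. The plants received no treatment; growth was at 24 °C in the day and 20 °C at night under a 16 h day, and each labelling used 6 µg of total RNA. Each species is represented in this comparison by 1 line, so the line, the species and the presence of the D genome cannot be told apart. The labels number the arrays as biological replicates without saying that they came from separate plants. In the main fit, the p-values measure the spread between arrays of the same group, pooled over all 33 arrays of the series.

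Bread wheat arose when a tetraploid wheat carrying the B and A genomes crossed with the goat grass Aegilops tauschii, which gave the D genome. Many wheat genes are therefore present as closely related copies, called homoeologs, on the B, A and D chromosomes, and durum wheat lacks the D copies. An array probe set made to 1 copy can bind transcripts of the other copies to an unequal degree, so a probe set reports a mixture of the copies it matches. In equal amounts of leaf RNA, fewer cells of a type and less RNA per cell cannot be told apart, and neither can fewer transcripts and a transcript that the probes bind less well.

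The arrays were separated by line. Over all 61179 probe sets, Pearson correlations were 0.989 to 0.995 among TAA10 arrays, 0.989 to 0.991 among TTR13 arrays and 0.943 to 0.947 between the lines. Array medians lay between 4.41 and 4.42 log2 units in TAA10 and between 4.42 and 4.44 log2 units in TTR13. RMA, named in the submitters' notes, usually evens out array levels, so close medians can come from the processing alone. Hybridisation controls averaged 9.83 ± 0.12 log2 units in TAA10 and 9.88 ± 0.083 log2 units in TTR13 (SD, n = 3 each). In the reference groups they averaged 9.29 in Blackbird, 9.36 in Allo-960S7 and 9.44 in 30A, and 9.84 to 10.18 in the others. Whether this affects levels compared across these groups was not tested. The 3′ probe set minus the 5′ probe set is a usual gauge of how intact the RNA was. For the elongation factor control ef1a it came to 0.48 ± 0.17 log2 units in TAA10 and -0.02 ± 0.31 in TTR13. For the actin control it was -0.46 ± 0.19 in TAA10 and -0.25 ± 0.15 in TTR13. For the gapdh control it was -2.60 ± 0.077 in TAA10 and -2.37 ± 0.19 in TTR13. The groups did not overlap for ef1a, higher in TAA10, or for gapdh, lower in TAA10. No order of the lines by RNA integrity is drawn from these opposite directions. Unequal binding of copies at these controls was not tested. With the ef1a difference as a covariate, an alternative chosen after seeing the data, 10438 probe sets were called. The leaf labels were checked with 5 genes of photosynthesis. PsbO and PsbP of the oxygen-evolving complex, petC of the cytochrome b6f complex and phosphoribulokinase (PRK) of the Calvin cycle all stood above 14 log2 units on average in both lines, as did a pair of Rubisco large subunit (rbcl) probe sets at 14.99 to 15.02. The brightest rbcl probe set not of the x type averaged 8.32 in TAA10 and 8.68 in TTR13. None of the 5 genes was called by limma's test at its chosen probe set. Each of 8 seed storage and 2 anther genes was read from its brightest probe set, with x type sets avoided where another existed. All had means under 5 log2 units in both lines except ALP, at 9.75 in TAA10 and 9.72 in TTR13. ALP is an avenin-like storage protein gene. An x type probe set of the glutenin gene LMW-GS averaged 6.89 in TAA10 and 6.83 in TTR13.

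TAA10 and TTR13 leaves differed at 12524 of 61179 probe sets (20.5%) at an adjusted p under 0.05 by limma with Benjamini-Hochberg adjustment. Transcript signal was higher in TAA10 at 5501 probe sets (8.99%) and lower at 7023 (11.5%). The higher calls were larger in size, with a median log2 difference of 0.95, against -0.62 for the lower ones and -0.08 for all probe sets. At a fold of 2 or more, 2630 probe sets were higher and 1360 lower in TAA10, and at a fold of 16 or more the counts were 320 and 77. Of the 320 probe sets at least 16-fold higher, 220 had a TTR13 mean under the median of the array medians, 4.42 log2 units, and of the 77 at least 16-fold lower, 48 had a TAA10 mean under it. The values used here carry no detection calls, so a fold against such a low level is no exact ratio. The 3 TAA10 arrays did not overlap the 3 TTR13 arrays at 20694 probe sets (33.8%), among them 11917 called ones (19.5%), 5329 higher (8.71%) and 6588 lower (10.8%) in TAA10. The share of the calls that were higher in TAA10 was 43.9%. It came to 56.2% when arrays were centred on their hybridisation controls instead, with 4518 probe sets higher and 3522 lower.

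**Figure D1:**
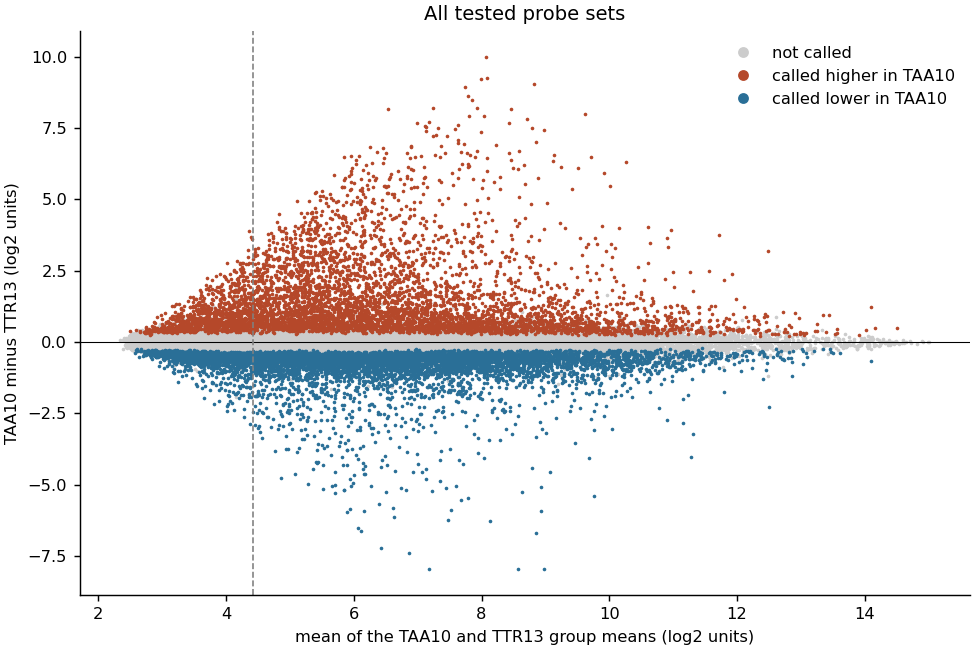
The log2 difference TAA10 minus TTR13 (vertical axis) is plotted against the mean of both group means (horizontal axis, log2 units) for all 61179 probe sets, with called ones coloured. The 5501 higher calls reach farther from 0 than the 7023 lower ones.

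The widest differences belonged to probe sets with no gene name in the annotation used here, so only their identifiers are given. Ta.13207.1.S1_x_at read 13.12, 13.21 and 12.89 log2 units in TAA10, against 3.11, 3.31 and 2.81 in TTR13, a log2 difference of 9.995 (SE 0.22, adjusted p = 4.44e-25). Ta.23362.2.S1_at read 12.76, 12.66 and 12.71 in TAA10, against 3.34, 3.67 and 3.40 in TTR13, a log2 difference of 9.24 (SE 0.16, adjusted p = 4.21e-27). Both were thus among the brightest probe sets in bread wheat and below the array medians in durum wheat. Their group means were 13.87 and 12.95 in TQ18, and 3.36 and 3.30 in Extracted-tetra.

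On the other side, Ta.1459.1.S1_at read 4.26, 4.70 and 4.80 log2 units in TAA10, against 12.75, 12.53 and 12.38 in TTR13, a log2 difference of -7.96 (SE 0.26, adjusted p = 7.47e-21). Ta.13300.1.S1_at read 5.25, 4.83 and 4.95 in TAA10, against 13.23, 12.92 and 12.74 in TTR13, a log2 difference of -7.95 (SE 0.50, adjusted p = 8.28e-14). The groups did not overlap at either. Ta.1459.1.S1_at was low in Extracted-tetra as well, at a mean of 4.83, and high in the tetraploids TD265 (12.24) and Blackbird (11.89). Ta.13300.1.S1_at was high in durum wheat, with means of 7.67 in TD265, 5.90 in Blackbird and 5.91 in Extracted-tetra.

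Probe sets were next divided by arrays that belong to neither line. The D genome diploid TQ18 minus the wild emmer TD265 separates probe sets that read higher from D genome leaves than from BBAA leaves, and 44.8% of all probe sets were called in it. Of the 15227 probe sets called higher in TQ18, 3867 (25.4%) were higher in TAA10 than in TTR13 and 768 (5.04%) were lower. Of the 12165 called lower in TQ18, 604 (4.97%) were higher in TAA10 and 3683 (30.3%) were lower. Of the 33787 not called there, 1030 (3.05%) were higher and 2572 (7.61%) lower. Over all probe sets, 8.99% were higher and 11.5% lower. Read the other way, 70.3% of the calls higher in TAA10 lay in the TQ18-higher class, which holds 24.9% of all probe sets, and 52.4% of the calls lower in TAA10 lay in the TQ18-lower class, which holds 19.9%. When the classes came from 30A minus Blackbird, chosen after seeing the data, 28% of the higher class was higher and 39% of the lower class was lower in TAA10. These are counts without a test.

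The probe sets with the strongest D genome or BBAA signal separated the lines further. Of 2542 probe sets at least 4-fold higher in TQ18 than in TD265, 1927 (75.8%) were higher in TAA10 than in TTR13 and 42 (1.65%) lower. Their median level above TD265 was 1.49 ± 0.053 log2 units over the TAA10 arrays and 0.11 ± 0.027 over the TTR13 arrays, with 1.55 ± 0.086 in XX329 and 0.10 ± 0.0055 in Extracted-tetra (SD, n = 3 each). Both hexaploids thus stood more than 1 log2 unit above both tetraploids on this median, in which the TD265 arrays set both the class and the zero. Of 3090 probe sets at least 4-fold lower in TQ18, 1483 (48%) were lower in TAA10 than in TTR13 and 205 (6.63%) higher. Their median relative to TD265 was -0.65 ± 0.031 in TAA10 and -0.13 ± 0.055 in TTR13, with -0.68 ± 0.056 in XX329 and -0.08 ± 0.039 in Extracted-tetra.

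**Figure D2:**
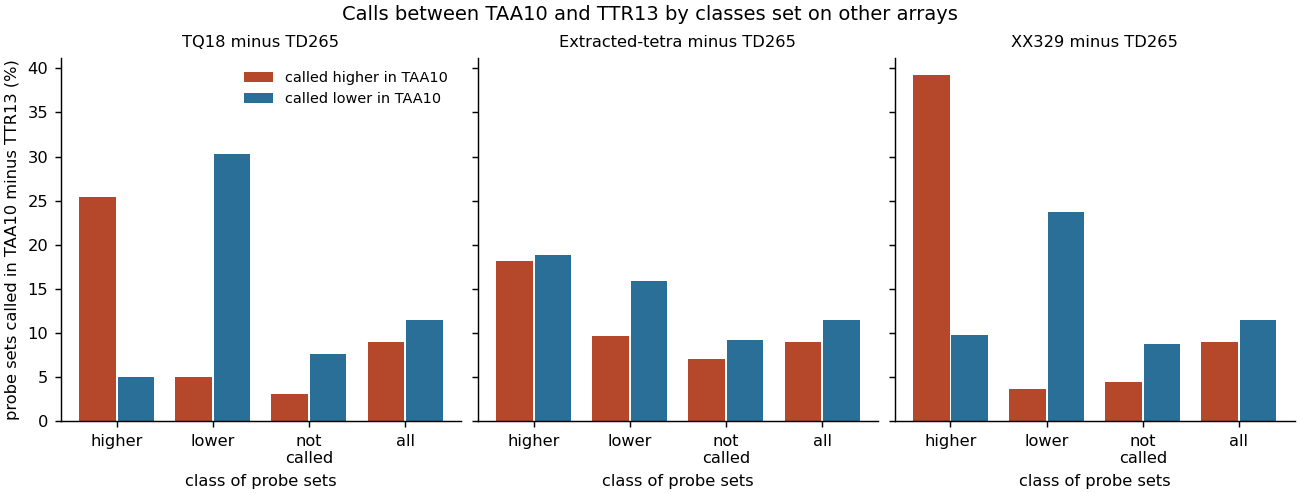
Shares of probe sets called higher or lower in TAA10 than in TTR13 (percent) within classes set by TQ18, Extracted-tetra or XX329 minus TD265. In the TQ18 classes, 25.4% of the higher class was higher and 30.3% of the lower class was lower in TAA10.

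The class of the BBAA tetraploid Extracted-tetra was less one-sided. Of 8633 probe sets called higher in Extracted-tetra than in TD265, 1571 (18.2%) were higher and 1623 (18.8%) lower in TAA10 than in TTR13. Over all probe sets these shares were 8.99% and 11.5%, so both directions were more frequent in this class. Of the 8549 called lower in Extracted-tetra, 825 (9.65%) were higher and 1357 (15.9%) lower in TAA10. XX329 minus TD265 called 30.8% of all probe sets, 13.5% higher and 17.3% lower. There, 3237 of 8249 probe sets called higher (39.2%) were higher in TAA10, and 2503 of 10567 called lower (23.7%) were lower. The share of the XX329-higher class that was lower in TAA10 was 9.76%, beside 11.5% of all probe sets.

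Named genes were each read from the brightest probe set not of the x type, or from an x type set where no other existed. A gene name beyond an identifier was available for 102 genes. Of these, 19 (18.6%) were called, beside 20.5% of all probe sets, with 6 higher and 13 lower in TAA10, so the named genes were called about as often as probe sets at large. The median log2 difference of the 102 was -0.08, as for all probe sets. All 19 called genes had TAA10 and TTR13 arrays that did not overlap, as did 11917 of all 12524 called probe sets. At the chosen probe sets, the largest differences belonged to a lipid transfer protein, a xylanase inhibitor, a beta-glucosidase and a protein repair enzyme.

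**Figure D3:**
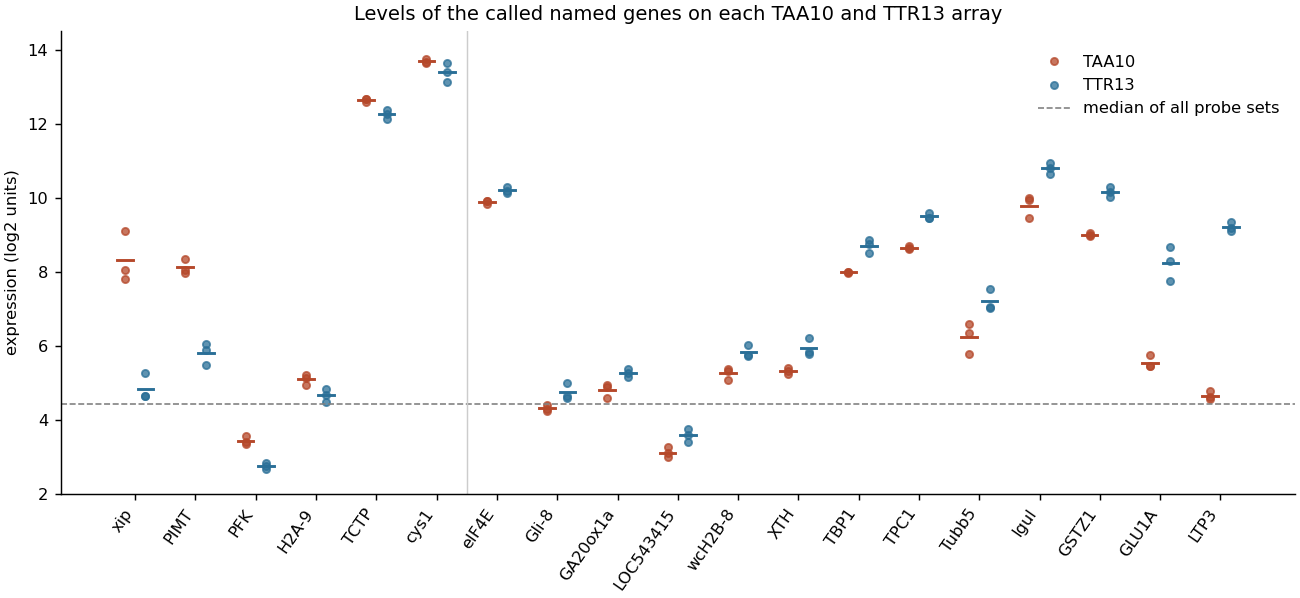
Level on each array (log2 units) of the 19 called named genes, with TAA10 left of TTR13 in each panel and a bar at each group mean. xip and PIMT lie higher and LTP3 and GLU1A lower in TAA10, with no overlap.

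Of 8 serpins and inhibitors of xylanase, amylase and trypsin, 1 was higher in bread wheat; both genes of lipid transfer and the cell wall and 1 of 7 defence genes were lower. These lists and those that follow are small, and their counts of calls stand beside 20.5% of all probe sets called. The xylanase inhibitor protein gene xip (LOC542997), whose product blocks xylanases that microbes use to break down plant cell walls, read 8.04, 7.81 and 9.11 log2 units in TAA10, against 4.63, 5.26 and 4.63 in TTR13. Every TAA10 array lay far above every TTR13 array. The difference was 3.48 (SE 0.26), or 11.2-fold higher in TAA10, with an adjusted p of 4.37e-12, and the second xip probe set was 15.8-fold higher (adjusted p = 5.28e-13). The other 7 serpins and inhibitors of amylase and trypsin were not called, with log2 differences of -0.42 to 0.10, and the median of all 8 was -0.15.

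LTP3 (LOC543095) encodes a lipid transfer protein, one of a family of small secreted proteins that bind lipids and occur at the leaf surface. Its probe set Ta.1282.4.S1_at read 4.55, 4.79 and 4.62 log2 units in TAA10, against 9.35, 9.17 and 9.09 in TTR13. The TAA10 arrays lay close to the array medians, and the groups were far apart. The difference was -4.55 (SE 0.20), or 23.4-fold lower in TAA10 (adjusted p = 2.07e-17). A second probe set of LTP3, of the x type that can bind other transcripts too, averaged 12.15 in TAA10 and 12.11 in TTR13 and was not called (adjusted p = 0.908).

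XTH, for a xyloglucan endotransglucosylase/hydrolase that remodels cell wall xyloglucan, read 5.23, 5.39 and 5.31 log2 units in TAA10, against 5.83, 6.22 and 5.77 in TTR13. It was 1.55-fold lower in TAA10, a log2 difference of -0.63 (SE 0.14, adjusted p = 0.0011). GLU1A (LOC780595), for a beta-glucosidase that frees defence benzoxazinoids from their sugar, read 5.74, 5.45 and 5.45 in TAA10, against 8.66, 7.75 and 8.28 in TTR13. Its difference of -2.69 had a wide error (SE 0.84), with a fold of 6.44 lower in TAA10 and an adjusted p of 0.0209. GLU1A varied within other groups, as in Blackbird at 10.58 ± 2.5 and Allo-960 mix, which contains Blackbird RNA, at 10.21 ± 2.7 (SD, n = 3 each). Its call ended without TAA10 replicate 2 or 3, or without TTR13 replicate 1 or 3 (adjusted p 0.0536 to 0.0744). With the spread taken from the arrays of both lines alone, the SE was 0.21 and the adjusted p 1.63e-05, and without the Allo-960 family they were 0.33 and 2.51e-06. The other 6 defence genes, 4 of them thionins and the others PR5 and the lectin WGA2, were not called, and all had means under 4 log2 units in both lines.

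PIMT, the protein-L-isoaspartate methyltransferase that repairs aged aspartyl residues in proteins, was higher in bread wheat. It (LOC543193) read 7.97, 8.05 and 8.34 log2 units in TAA10, against 5.88, 5.48 and 6.05 in TTR13. The lowest TAA10 array lay well above the highest TTR13 array, and the difference of 2.32 (SE 0.21) was 4.99-fold, with an adjusted p of 3.44e-10. The methyl transfer enzymes COMT1 of lignin synthesis, PEAMT1 of choline synthesis and SAHH of the methyl cycle had log2 differences of 0.32, 0.29 and 0.02 and were not called.

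Of 6 redox and detoxification genes, 2 were lower in bread wheat, beside 11.5% of all probe sets, and the median was -0.38. GSTZ1 (LOC543412), a zeta class glutathione transferase, read 8.98, 9.06 and 8.96 log2 units in TAA10, against 10.29, 10.02 and 10.16 in TTR13. The arrays of each line lay close together, and the log2 difference was -1.16 (SE 0.11), 2.23-fold lower in TAA10, with an adjusted p of 5.19e-10. Its other probe sets were lower as well, by 4.13-fold (adjusted p = 2.61e-13) and by a log2 difference of -0.91 (adjusted p = 0.00509). The glyoxalase gene lgul (LOC542984), for the lactoylglutathione lyase that detoxifies methylglyoxal, read 9.95, 9.98 and 9.44 in TAA10, against 10.65, 10.94 and 10.81 in TTR13. It was 2.01-fold lower, a log2 difference of -1.01 (SE 0.20, adjusted p = 0.000325), and its second probe set was 1.53-fold lower (adjusted p = 0.0482). Catalase (CAT1), the chloroplast thioredoxin Trx-M, the peroxiredoxin PER1 and Prx1 were not called at their brightest probe sets, with log2 differences of 0.12, -0.13, -0.23 and -0.53.

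Of the 7 cytoskeleton genes, the beta-tubulin Tubb5 was called, beside 20.5% of all probe sets. Tubb5 (LOC543261) read 5.78, 6.59 and 6.34 log2 units in TAA10, against 7.53, 7.01 and 7.06 in TTR13, a log2 difference of -0.96 (SE 0.20), 1.95-fold lower in TAA10 (adjusted p = 0.000617). The other tubulins and profilin, a regulator of actin, had log2 differences of -0.20 to 0.45 and were not called, and the list's median was 0.03. TPC1 (LOC543074), a cation channel gene, read 8.62, 8.64 and 8.70 in TAA10, against 9.45, 9.58 and 9.46 in TTR13. It was 1.80-fold lower in TAA10, a log2 difference of -0.84 (SE 0.19, adjusted p = 0.00157). The proton pump gene ha1 was not called, at 13.09 ± 0.052 in TAA10 and 12.98 ± 0.073 in TTR13 (SD, n = 3 each).

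The called genes of transcription and translation differed by less than 2-fold. The TATA-binding protein gene TBP1, which helps place RNA polymerase at promoters, read 7.99, 7.99 and 7.96 log2 units in TAA10, against 8.87, 8.50 and 8.75 in TTR13. It was 1.65-fold lower in TAA10, a log2 difference of -0.72 (SE 0.14, adjusted p = 0.000296). The cap-binding translation factor eIF4E read 9.90, 9.82 and 9.91 in TAA10, against 10.29, 10.19 and 10.13 in TTR13, and was 1.25-fold lower (log2 difference -0.32, SE 0.11, adjusted p = 0.0275). TCTP, the translationally controlled tumour protein, was represented by an x type probe set alone. It read 12.67, 12.67 and 12.60 in TAA10, against 12.38, 12.13 and 12.27 in TTR13, and was 1.31-fold higher (log2 difference 0.39, SE 0.095, adjusted p = 0.00291). The other 6 translation genes were not called, and the list's median was -0.10. The eIF4E call ended without TAA10 replicate 1 or 2 or TTR13 replicate 1 or 2 (adjusted p 0.0543 to 0.109), and it and the TCTP call also ended when arrays were centred on the hybridisation controls (adjusted p 0.392 and 0.102). The eIF4E call was lost under 10 of 18 alternatives in all.

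Of 6 histone and chromatin genes, 1 was higher and 1 lower in TAA10, beside 8.99% and 11.5% of all probe sets. Their median was -0.02. The histone gene H2A-9 (LOC732714) read 5.22, 5.14 and 4.94 log2 units in TAA10, against 4.49, 4.66 and 4.82 in TTR13, 1.36-fold higher (log2 difference 0.44, SE 0.15, adjusted p = 0.0337). For the histone wcH2B-8 (LOC543184), the values were 5.32, 5.08 and 5.36 in TAA10, against 6.03, 5.73 and 5.75 in TTR13, 1.5-fold lower (log2 difference -0.58, SE 0.16, adjusted p = 0.00742). The gap between the nearest arrays of the lines was small for both. The H2A-9 call ended without TAA10 replicate 1 or 2 or TTR13 replicate 1 or 2 (adjusted p 0.0718 to 0.147), and the wcH2B-8 call without TAA10 replicate 2 (0.0504) or TTR13 replicate 1 (0.054), or with arrays centred on the hybridisation controls (0.137). A further wcH2B-8 probe set, Ta.7378.35.S1_x_at, singled out after its values were seen, read 5.72, 5.23 and 5.25 in TAA10, against 8.23, 8.10 and 8.27 in TTR13. It was 6.97-fold lower in TAA10 (adjusted p = 6.27e-15), while 5 other wcH2B-8 probe sets were not called. Its means in the 7 reference groups lay between 4.89 (30A) and 6.67 (TQ18), so durum wheat stood highest.

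Of 3 gibberellin 20-oxidases, enzymes of the last steps to active gibberellin, the growth hormone, 1 was called, beside 20.5% of all probe sets. GA20ox1a (LOC543327) read 4.59, 4.88 and 4.93 log2 units in TAA10, against 5.16, 5.25 and 5.37 in TTR13, 1.37-fold lower in TAA10 (log2 difference -0.46, SE 0.12, adjusted p = 0.00564). The log2 differences were -0.42 (adjusted p = 0.0655) for GA20ox1b and -0.18 (adjusted p = 0.614) for GA20ox1d, and 62.4% of all probe sets had a negative one. The GA20ox1a call ended without TAA10 replicate 1 (adjusted p = 0.0595) and with arrays centred on the hybridisation controls (0.0659).

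In primary metabolism the one call among 5 genes of glycolysis and the Calvin cycle was PFK, whose name stands for phosphofructokinase, the enzyme that commits sugar to glycolysis. It read 3.34, 3.41 and 3.56 log2 units in TAA10, against 2.76, 2.83 and 2.66 in TTR13, 1.61-fold higher in TAA10 (log2 difference 0.69, SE 0.14, adjusted p = 0.00041). All 6 values lay under the array medians. GAPN, FBP, PRK and Pgk-1 had log2 differences of -0.10 to 0.24 and means above 11 log2 units in both lines. None of 7 starch, fructan and sugar genes was called at its chosen probe set (median -0.18), nor were the purine genes AdSS and APRT. The widest of these was the beta-amylase gene BMY1 at 3.62 ± 0.11 in TAA10 and 4.35 ± 0.87 in TTR13 (SD, n = 3 each; adjusted p = 0.193).

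The remaining calls were small or near the array medians. The gene cys1 (LOC543181) read 13.65, 13.68 and 13.74 log2 units in TAA10, against 13.65, 13.40 and 13.14 in TTR13, 1.23-fold higher (log2 difference 0.30, SE 0.096, adjusted p = 0.0263). Its highest TTR13 array all but met its lowest TAA10 array, and the call ended without TAA10 replicate 2 or 3 or TTR13 replicate 2 or 3 (adjusted p 0.0551 to 0.253, with a log2 difference of 0.17 without TTR13 replicate 3). The gliadin gene Gli-8, of a seed storage family, was represented by an x type probe set alone. It read 4.24, 4.39 and 4.30 in TAA10, against 4.99, 4.6 and 4.63 in TTR13, 1.34-fold lower (log2 difference -0.43, SE 0.12, adjusted p = 0.0124). That call ended without TAA10 replicate 1 (adjusted p = 0.0522) or TTR13 replicate 1 (0.117), and with the ef1a difference as a covariate (0.152). LOC543415, whose annotated synonyms name unlike proteins, read 3.09, 2.98 and 3.25 in TAA10, against 3.74, 3.41 and 3.59 in TTR13 (log2 difference -0.47, SE 0.12, adjusted p = 0.0057). Centring on the hybridisation controls ended the calls of cys1, Gli-8 and LOC543415 (adjusted p 0.184, 0.161 and 0.116).

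Several gene groups held no call at the chosen probe sets of their genes. There, the 4 photosynthesis genes had a median log2 difference of 0.00 and a range of -0.36 to 0.05. Among the other rbcl probe sets, Ta.3807.1.A1_at was called higher in TAA10 (4.49 against 3.73 log2 units, adjusted p = 0.0119). TaAffx.128414.190.A1_at was called lower (2.89 against 3.38 log2 units, adjusted p = 0.0167). The 6 cold, dehydration and heat genes, among them the dehydrin-like COR410 and Rab15, had means under 6 log2 units in both lines and log2 differences of -0.39 to 0.27. DMAS1, for an enzyme of the phytosiderophores with which grasses take up iron, averaged 8.04 ± 0.042 in TAA10 and 8.42 ± 0.090 in TTR13 (SD, n = 3 each; adjusted p = 0.155). The phytochelatin synthase PCS1 and the malate transporter ALMT1 were not called either.

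Probe sets of the same gene could go opposite ways. Of 47 named genes with more than 1 probe set, 14 had a call at any of them, 11 of these in 1 direction and 3 (Prx1, Tubb5 and rbcl) in both. Prx1 (LOC606328) was singled out after its values were seen. Its probe set Ta.6572.2.S1_at read 11.51, 11.65 and 11.79 log2 units in TAA10, against 5.10, 5.62 and 5.08 in TTR13, 83.6-fold higher in TAA10 (log2 difference 6.38, SE 0.19, adjusted p = 5.86e-22). Its probe set Ta.6572.1.S1_at read 11.44, 11.58 and 11.68 in TAA10, against 12.12, 12.56 and 12.37 in TTR13, 1.72-fold lower (adjusted p = 0.019). The first of these averaged 13.40 in TQ18 and 13.44 in 30A but 3.46 to 4.596 in TD265, Blackbird and Extracted-tetra, and the second averaged 3.52 in TQ18 and 3.06 in 30A but 11.70 to 12.32 in those tetraploids. Both were high in TAA10, XX329 and Allo-960S7. The brightest Prx1 probe set averaged 11.65 in TAA10 and 12.18 in TTR13 and was not called (adjusted p = 0.079).

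Tubb5 was called in both directions too. The probe set Ta.214.2.A1_at, also chosen after its values were seen, read 6.19, 6.67 and 6.40 log2 units in TAA10, against 4.27, 4.87 and 4.73 in TTR13. It was 3.47-fold higher in TAA10 (log2 difference 1.80, SE 0.25, adjusted p = 1.67e-06), where the chosen Tubb5 probe set was lower. Its means were 8.55 in TQ18 and 9.16 in 30A, and 4.80 in Extracted-tetra. The chosen Tubb5 probe set, not of the x type, averaged 6.24 in TAA10 and 6.39 in XX329, with 5.39 in TQ18, 6.19 in 30A and 7.09 to 7.52 in the 4 tetraploids. Among x type Tubb5 sets, Ta.214.1.S1_x_at was 1.77-fold lower in TAA10 (adjusted p = 0.00277) and Ta.214.2.A1_x_at 2.26-fold higher (adjusted p = 0.00183). Which copies of a gene each probe set binds was not tested here.

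**Figure D4:**
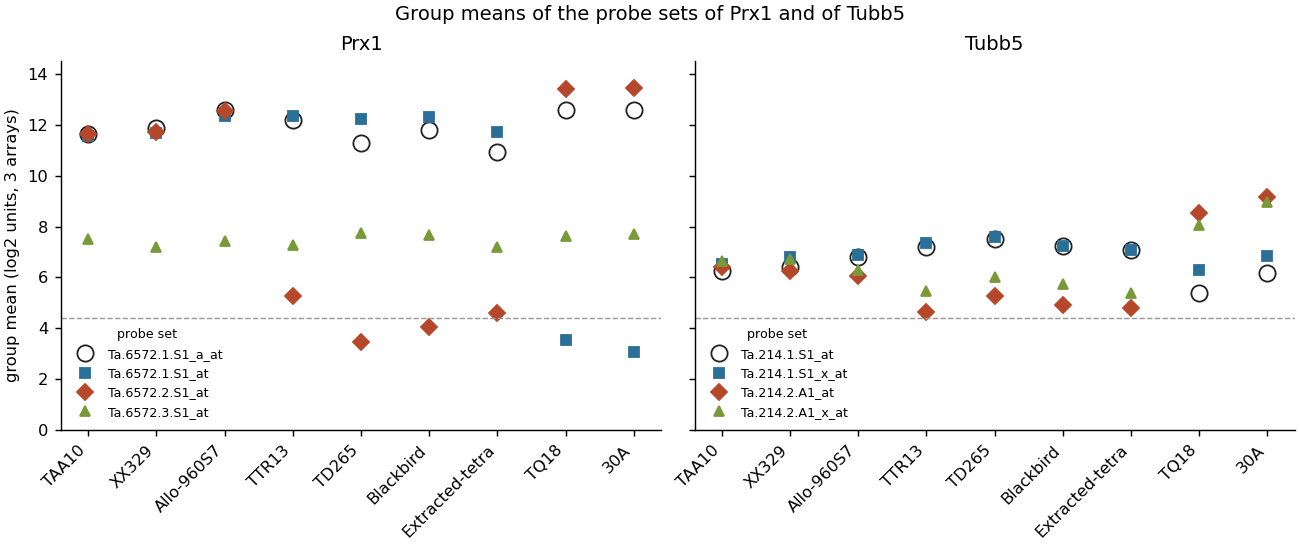
Group means (log2 units, 3 arrays each) of every Prx1 and Tubb5 probe set in 9 groups; the dashed line marks the median of the array medians. Ta.6572.2.S1_at is near 12 in the hexaploids, near 13 in the diploids and under 6 in the tetraploids.

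The same contrast could be set beside others that share its arrays, given here as values of each gene. TAA10 minus TD265 called 31.8% of probe sets, Extracted-tetra minus TTR13 12.2%, TAA10 minus Extracted-tetra 18.3% and TTR13 minus TD265 22.3%. For xip, Extracted-tetra averaged 8.53 log2 units, and TAA10 minus Extracted-tetra was -0.21 (adjusted p = 0.679), while TD265 averaged 5.38 and Blackbird 7.75. For LTP3, Extracted-tetra averaged 4.76, TAA10 minus Extracted-tetra was -0.10 (adjusted p = 0.818), and TD265 and Blackbird averaged 9.46 and 8.78. The second LTP3 probe set averaged 12.43 in Extracted-tetra, against 12.15 in TAA10.

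For PIMT, Extracted-tetra averaged 6.45 log2 units and TAA10 stood 3.19-fold above it (log2 difference 1.67, adjusted p = 3.88e-07). TD265 averaged 7.32, so that TTR13 minus TD265 was -1.51 (adjusted p = 1.62e-06), and TQ18 averaged 9.17. TBP1 averaged 8.86 in Extracted-tetra, above TAA10 (TAA10 minus Extracted-tetra -0.88, adjusted p = 3.01e-05). GSTZ1 averaged 9.29 in Extracted-tetra, between the lines, and TAA10 minus Extracted-tetra was -0.29 (adjusted p = 0.0571). Tubb5 and TPC1 were lower in TAA10 than in Extracted-tetra too, by log2 differences of -0.85 (adjusted p = 0.00258) and -0.63 (adjusted p = 0.0207). For lgul, Extracted-tetra averaged 9.63 and TAA10 minus Extracted-tetra was 0.17 (adjusted p = 0.67).

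A second pair of a hexaploid and a tetraploid, Allo-960S7 and its parent Blackbird, shares no arrays with TAA10 and TTR13. In that pair 11771 probe sets (19.2%) were called. The difference between the pairs, (TAA10 minus TTR13) minus (Allo-960S7 minus Blackbird), was called at 6731 probe sets (11%), 3736 of them positive (6.11%) and 2995 negative (4.9%). It was called at 9 of the 19 named genes, which were picked for their call in TAA10 minus TTR13, a part of this difference; of all 12524 probe sets with that call, 4089 (32.6%) were called here. xip was not called in the second pair (0.08, adjusted p = 0.922), and LTP3 had a log2 difference of -1.47 there, against -4.55 in the first pair. PIMT was higher in both hexaploids, by 2.32 in TAA10 minus TTR13 and 1.33 in Allo-960S7 minus Blackbird. GA20ox1a was lower in both hexaploids, with log2 differences of -0.46 and -0.45 (adjusted p = 0.00682 in the second pair) and a difference between the pairs of -0.01.

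**Figure D5:**
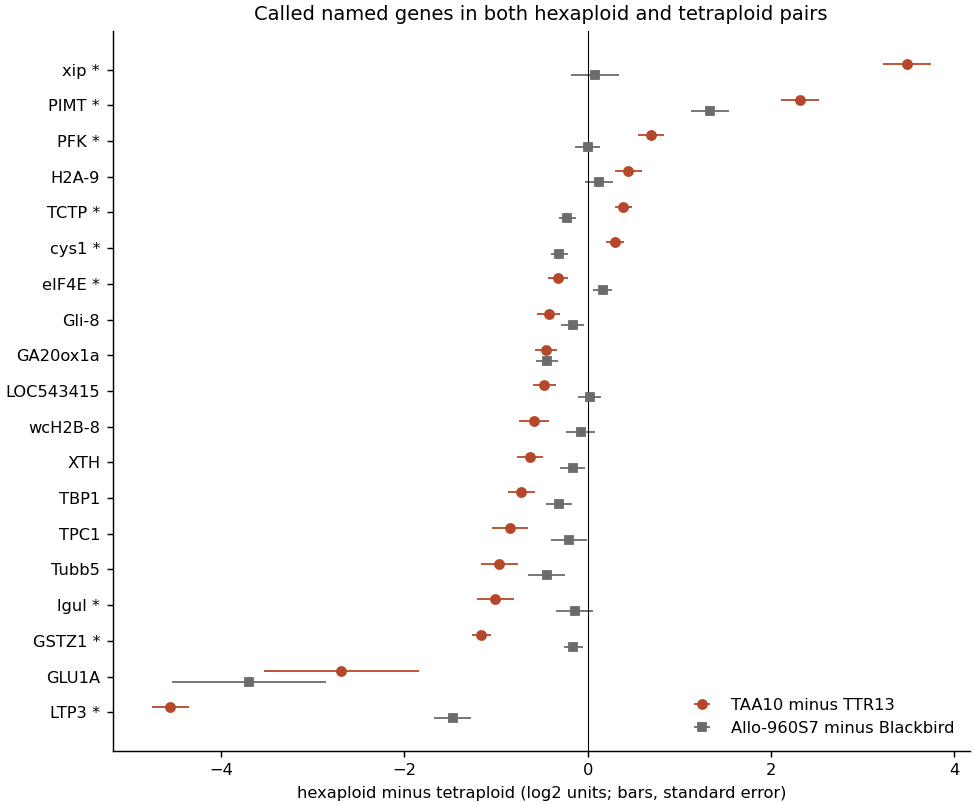
Log2 difference (horizontal axis, bars show the standard error) of the 19 called named genes in TAA10 minus TTR13 and in Allo-960S7 minus Blackbird, with an asterisk where the pairs differed at an adjusted p under 0.05. xip and LTP3 lie farthest apart, and GA20ox1a nearly coincides.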

How the data were processed

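Total RNA of wheat leaves, extracted with Trizol, was hybridised to 1-colour Affymetrix wheat arrays. The values are log2 expression values as deposited by the authors in the series' value table. RMA and limma are named per the submitters' processing notes, with no version or role. The table holds 61290 rows; 111 Affymetrix control probe sets were left out, and 64 reporter sets stayed among the 61179 tested. Scanner files, detection calls and background values were not used here. The number of arrays, 3 a group, limits the precision.

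A mean per group was fitted to all 33 arrays (11 groups) with limma 3.58.1 in R 4.3.3 (lmFit, eBayes), with Benjamini-Hochberg adjustment over all probe sets and calls at an adjusted p under 0.05. The spread had 22 residual degrees of freedom. An exact test on 3 against 3 arrays cannot go below p = 0.1 and was not used. Data were simulated for TAA10 minus TTR13 over 61179 probe sets, with each spread taken from the fit to all 33 arrays. With 100 changed at each size, 36% of those set at 1.5-fold and 93% of those at 2-fold were called, and 11 unchanged probe sets were called too. Far fewer probe sets were changed there than the 12524 called in the data, and the adjustment depends on that number. These shares therefore hold for the simulated setting and not for the data.

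Gene names came from the platform's annotation, matched by Entrez ID to RefSeq (assembly IWGSC CS RefSeq v2.1, names only): 1273 probe sets carried a symbol (771 genes), 0 of them several, and 1272 matched. Of these genes 102 have a name beyond an identifier. The brightest probe set over all arrays represents a gene, and x type sets were avoided where another existed. By the rule, the text names up to 15 called genes on each side whose arrays do not overlap, up to 2 called members of each list, and the 2 highest and 2 lowest probe sets without a gene name; all 19 called named genes fell under it. The comparison and the gene lists were chosen with earlier results of these data known. Replicate numbers did not pair the arrays: deviations of same-numbered arrays correlated at 0.077, -0.103 and -0.077. Alternatives were array centring, dim or x type probe sets left out, fewer groups, covariates, a replicate block and each array left out. A 2-fold minimum was applied to the counts alone.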

Additional observations from a re-analysis of the deposited data

Results flagged for a closer look

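The 9 results here are named genes whose difference between bread and durum wheat differed from that between Allo-960S7 and Blackbird, by limma's test of the difference itself with Benjamini-Hochberg adjustment over all probe sets. Each value is (TAA10 minus TTR13) minus (Allo-960S7 minus Blackbird) in log2 units. It was 3.40 for the xylanase inhibitor xip (SE 0.37, adjusted p = 4.18e-08) and -3.08 for the lipid transfer protein LTP3 (SE 0.29, adjusted p = 2.25e-09). It was 0.98 for PIMT (adjusted p = 0.0267), 0.69 for PFK (adjusted p = 0.0193), 0.61 for TCTP (adjusted p = 0.00196) and 0.60 for cys1 (adjusted p = 0.00236). It was -0.49 for eIF4E (adjusted p = 0.031), -0.87 for lgul (adjusted p = 0.0462) and -1.004 for GSTZ1 (adjusted p = 1.42e-05). In the second pair the log2 difference was -0.31 for cys1, against 0.30 in TAA10 minus TTR13. The pairs differ in both the hexaploid and the tetraploid line and in the hybridisation control level of their arrays. The share of each in these values was not tested.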

How the results depend on the processing

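Limits: each line stands for its species, 3 arrays a group set the precision, and low levels carry no detection call. The main count was 12524, with 5501 higher and 7023 lower in TAA10. Leaving out 1 array at a time gave 10719 to 10975 calls, 4823 to 5072 higher and 5780 to 6152 lower. Centring on hybridisation controls gave 8040 calls, 4518 higher and 3522 lower; the cause was not tested. With the 2-fold minimum, which by construction keeps fewer probe sets, 3990 stayed, 2630 higher and 1360 lower. The fit with only the arrays of both lines gave 10540, that without the Allo-960 family 10926, the actin covariate 12133 and the ef1a covariate, added after seeing the data, 10438. Leaving out the dimmest probe sets gave 11922, and leaving out x type sets 10731. The replicate numbers did not pair the arrays, and the replicate block gave 12469 calls. The difference between the pairs was called at 5734 to 6604 probe sets with 1 array left out. Within classes, leaving out 1 array gave 3447 to 3561 calls higher in the TQ18-higher class, 3118 to 3403 lower in the TQ18-lower class, 1393 to 1479 and 1155 to 1234 in the Extracted-tetra classes, and 3014 to 3056 and 2101 to 2358 in the XX329 classes. Classes restricted to at least 2-fold held, by construction, fewer calls: 2448 lower in the TQ18-lower class, 718 higher and 436 lower for Extracted-tetra, and 1962 higher and 735 lower for XX329. Of 19 named genes, 10 kept their call under every alternative run for single genes, and 9 lost it under at least 1. Of these 9, 7 lost it when 1 array was left out, and no direction reversed in those runs. The 2-fold minimum was applied to the counts alone, not to single genes. Of the 10 kept, PFK (1.61-fold), XTH (1.55), TBP1 (1.65), TPC1 (1.8) and Tubb5 (1.95) differed by less than 2-fold. With only the arrays of both lines, the calls of H2A-9, TCTP, cys1, eIF4E and Gli-8 were lost at adjusted p of 0.0505, 0.0502, 0.217, 0.0835 and 0.063. The eIF4E call was also lost with arrays centred on their medians (0.0519), without the Allo-960 family (0.051) and with the actin (0.0565) or ef1a (0.071) covariate; without that family H2A-9 (0.0696) and cys1 (0.0735), and with the actin covariate cys1 (0.0552), were lost too.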

Other observations

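Probe sets other than those chosen to represent a gene held further calls, listed here as values chosen after they were seen. The fructan exohydrolase gene 6-FEH, which breaks down fructan reserves, had 1 x type probe set higher in TAA10 by 2.16-fold (4.31 against 3.20 log2 units, adjusted p = 0.00859). The histone gene H2A-3 had a probe set at 5.15, 3.55 and 4.01 log2 units in TAA10, against 2.95, 3.15 and 3.04 in TTR13 (adjusted p = 0.000184), with 1 TAA10 array well above the others. The elongation factor gene TEF1 had an x type probe set lower in TAA10 by 1.39-fold (11.65 against 12.12 log2 units, adjusted p = 0.0109). The second lgul probe set, at 11.10 in TAA10 and 11.72 in TTR13, averaged 5.80 in Blackbird and 6.76 in Allo-960S7.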
